A study of Sus scrofa with 9 samples.

Results

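Genes of vesicle trafficking were examined in hatched blastocysts (HB) of the pig. Members were all measured genes whose symbols start with TRAPPC or with RAB, VPS, SNX, STX, VAMP or SEC and a digit. The COPI coat genes *COPA*, *COPB1*, *COPB2* and *COPZ1* were added. By name alone the rule takes in 6 effectors and regulators of Rabs and 3 SEC14-like proteins. This gave 112 of 7495 named genes, read by 169 of 10344 named probes: 35 RAB, 19 VPS, 18 SNX, 6 TRAPPC, 8 STX, 2 VAMP, 20 SEC and 4 COP genes. A single probe read 76 of them and 2 to 6 probes the other 36. No filter on low values was applied, so that all 112 entered every comparison as reported. Some of the other settings, described at the end, left members out.

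The embryos were derived in vivo (IVV HB), from oocytes activated without sperm, that is by parthenogenesis (PA HB), or by somatic cell cloning through chromatin transfer (CT HB). Each group comprised 3 arrays, each hybridised with the Cy5-labelled RNA of a pool of 5 embryos and with the same Cy3-labelled reference, pooled from oocytes of the germinal vesicle stage and embryos up to day 11. IVV HB were flushed 5.5 days after insemination, whereas PA HB and CT HB were activated chemically with ionomycin and DMAP and grown in culture; their label gives a collection time of 7 hours, which does not match a hatched stage. According to the paper a single company made all PA and CT embryos, from oocytes matured in vitro, whereas IVV embryos were collected from gilts. Between PA HB or CT HB and IVV HB, genome origin, oocyte maturation, activation, culture, producer and age therefore changed together and cannot be told apart. PA HB and CT HB shared oocyte maturation, activation, culture medium and labelled time, and differed in genome origin and in the manipulation of the oocyte. Values are log2 ratios, embryo pool over the reference, averaged over the probes of a gene. A positive difference between groups means a higher transcript level in the first group named, and a log2 difference of 1 is a 2-fold change. A gene was counted as changed at a limma adjusted p of at most 0.05 together with a change of at least 2-fold.

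Membrane proteins and secreted proteins enter the endoplasmic reticulum (ER) through the SEC61 translocon, leave it in vesicles coated with COPII, and return from the Golgi in vesicles coated with COPI. Rab GTPases give each membrane its identity and recruit tethers, such as the TRAPP and HOPS complexes, which hold a vesicle near its target until SNARE proteins (syntaxins and VAMPs) fuse both membranes. Retromer and sorting nexins retrieve receptors from endosomes, and ESCRT sorts others for degradation. In a blastocyst the outer epithelium, the trophectoderm, depends on such polarized traffic to place junction proteins and ion pumps and to take up nutrients.

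The arrays differed in spread. The interquartile range of the log2 ratios was 0.85 to 1.03 in PA HB, 0.55 to 0.67 in IVV HB and 0.58 to 0.66 in CT HB, and array medians lay between -0.11 and -0.03. Of 12 trophectoderm markers 9 were measured, with array medians from 0.18 to 0.84. On the arrays *KRT8* was higher and *KRT18* lower in PA HB against IVV HB (log2 1.09 and -1.12). By QPCR the authors reported both genes as lower in PA HB, so the direction of *KRT8* differed between the methods. Of 16 measured oocyte genes 14 lay below the reference on all arrays, with list medians of -3.93 to -2.96 in IVV HB, -2.82 to -2.26 in PA HB and -3.91 to -3.53 in CT HB, and 9 of the 16 rose in PA HB against IVV HB while 12 fell in CT HB against PA HB. None of 7 cumulus cell markers changed in any comparison by limma, although 4 had an unadjusted p under 0.05 in PA HB against IVV HB. Among 4 measured fibroblast markers *VIM* was higher in PA HB (1.21) and *DCN* was not called (-0.49, adjusted p = 0.10), among 4 leukocyte markers *AIF1* was higher in PA HB and CT HB (4.40 and 4.98 against IVV HB), and among 4 hypoblast markers *GATA6* was higher in PA HB (2.06) and *FOXA2* was not called (-0.64, adjusted p = 0.083). The part of these lists in the results on trafficking genes was not tested.

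Relative to the reference, which holds earlier and later stages, most trafficking genes lay near 0. The mean over the 9 arrays was within 1 log2 unit of the reference for 96 of 112 genes, below -1 for 10 and above 1 for 6. The log2 ratio was negative on all 9 arrays for 25 members (22.3%), beside 21.6% of all genes, and positive on all 9 for 8 (7.14%), beside 9.22% of all genes. Furthest below the reference in their families were *SEC62*, a translocon partner (mean -2.21), *VPS37A* of ESCRT-I (-2.13), the TRAPP core subunit *TRAPPC3* (-1.76), the sorting nexin *SNX31* (-1.67), the Rab3 regulator *RAB3GAP1* (-1.13), the endosomal syntaxin *STX7* (-0.99) and *COPB1*, beta-COP of the COPI coat (-0.58). Furthest above were *RAB34* (1.86), the retromer subunit *VPS26B* (1.71), *SNX33* (1.51), *TRAPPC6B* (1.07), the coat subunit *COPA* (0.60), the autophagosomal syntaxin *STX17* (0.60), the COPII cargo adaptor *SEC24C* (0.28) and *VAMP5* (0.27), with *VAMP4*, a SNARE of the trans-Golgi network, at 0.15. These ratios place each gene against the reference and do not rank transcript levels between genes.

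Over the 3 comparisons 15 of 112 trafficking genes changed at least once, and 97 changed in none. In PA HB against IVV HB, 13 members changed, 8 of them higher and 5 lower, which is 11.6% of the members beside 7.71% of all genes (4.34% higher and 3.38% lower). After quantile normalization between arrays 7 members changed, 3 higher and 4 lower, beside 316 of all genes, 119 higher and 197 lower. In CT HB against IVV HB, 2 members changed, both higher, beside 0.654% of all genes (0.574% higher and 0.0801% lower), and in CT HB against PA HB 10 changed, 2 higher and 8 lower (8.93% beside 7.78% of all genes, 2.95% higher and 4.83% lower). The median difference of the members was -0.07 in PA HB and -0.05 in CT HB against IVV HB, and 0.09 in CT HB against PA HB, beside 0.01, -0.01 and 0.00 for all genes. Regardless of fold change, 19, 2 and 16 members passed by adjusted p alone in these comparisons, beside 13.9%, 0.801% and 14.4% of all genes. An unadjusted p under 0.05 was met by 41, 15 and 32 members (36.6%, 13.4% and 28.6%), beside 28.8%, 11% and 28.3% of all genes. The 3 arrays of PA HB did not overlap those of IVV HB for 45 members (40.2%), beside 30.8% of all genes, with 16 members above (14.3%, beside 15.1%) and 29 below (25.9%, beside 15.7%). For CT HB against IVV HB this held for 21 members (18.8%, beside 19.2%), 9 above and 12 below (9.79% and 9.37% of all genes), and for CT HB against PA HB for 35 (31.2% of both), 19 above and 16 below (15% and 16.2% of all genes). Both comparisons with IVV HB share the IVV HB arrays, and both with PA HB share the PA HB arrays.

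**Figure D1:**
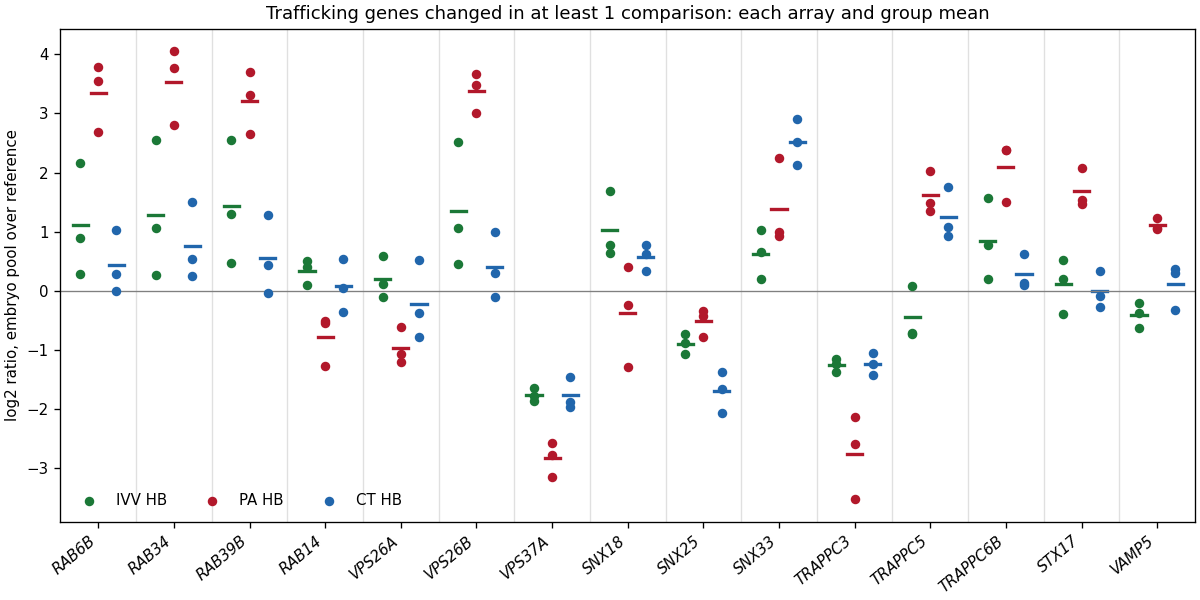
Log2 ratio of embryo pool over reference (y axis) for the 15 trafficking genes changed in at least 1 comparison (x axis), with a point per array, 3 arrays per group, and a bar at the group mean. *RAB34*, *RAB6B*, *RAB39B*, *VPS26B* and *TRAPPC6B* were high on all PA HB arrays and spread widely in IVV HB, whereas *STX17*, *TRAPPC5* and *VAMP5* were high in PA HB with narrower IVV HB values.

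Of 35 RAB genes 3 were higher and 1 was lower in PA HB, relative to IVV HB, beside 4.34% and 3.38% of all genes. *RAB34*, which acts in lysosome positioning and cilium formation, had log2 ratios of 0.26, 2.55 and 1.06 on the IVV HB arrays, 2.80, 4.05 and 3.77 on the PA HB arrays, and 0.53, 1.50 and 0.24 on the CT HB arrays. PA HB did not overlap the other groups, although IVV HB 2 came close to PA HB 1. The difference was 2.25 (SE 0.53, adjusted p = 0.019) in PA HB against IVV HB and -2.78 in CT HB against PA HB (adjusted p = 0.0071).

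*RAB6B*, a Rab of traffic at the Golgi best known from neurons, measured 0.28, 2.16 and 0.89 in IVV HB, 2.68, 3.79 and 3.54 in PA HB, and 0.27, 1.03 and -0.01 in CT HB. *RAB39B*, a Rab whose human mutations cause intellectual disability, measured 0.47, 2.55 and 1.30 in IVV HB, 2.65, 3.31 and 3.70 in PA HB, and 0.42, 1.29 and -0.04 in CT HB. Both were highest on the PA HB arrays without overlap, and in both the second IVV HB array was the highest outside PA HB. *RAB6B* differed by 2.23 (SE 0.45, adjusted p = 0.0097) and *RAB39B* by 1.78 (SE 0.48, adjusted p = 0.032) in PA HB against IVV HB, and in CT HB against PA HB by -2.91 (adjusted p = 0.0048) and -2.66 (adjusted p = 0.0067). In PA HB against IVV HB the calls of *RAB34*, *RAB6B* and *RAB39B* were lost after quantile normalization, where the differences were 1.03, 1.10 and 0.41, and after scale normalization, which evens the spread of the arrays, at 1.28, 1.32 and 0.86. Quantile normalization also ended the calls of *RAB34* and *RAB39B* between CT HB and PA HB (-1.45 and -1.42). Their calls between PA HB and IVV HB were further lost without array 1 or 3 of IVV HB or 2 or 3 of PA HB, with differences over all left-out arrays of 1.74 to 2.88 for *RAB34* and 1.29 to 2.33 for *RAB39B*, whereas their calls between CT HB and PA HB held without each array. A fit of the PA HB and IVV HB arrays alone put *RAB39B* just beyond the threshold.

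*RAB14*, which carries cargo between the trans-Golgi network and early endosomes, was the Rab that fell in PA HB. Its log2 ratios were 0.40, 0.50 and 0.09 in IVV HB, -0.51, -1.29 and -0.55 in PA HB, and 0.54, -0.36 and 0.04 in CT HB. All PA HB arrays lay below those of the other groups. The difference from IVV HB was -1.11 (SE 0.27, adjusted p = 0.020), but it came from 1 of 2 probes, with -1.92 and -0.30 for the single probes, and the call was lost without IVV HB 1, IVV HB 2 or PA HB 2 (-1.24 to -0.86 over all left-out arrays) and after scale normalization (-0.94).

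Among the other Rabs, *RAB13*, which serves tight junctions, was lower in PA HB with an adjusted p of 0.015 but short of 2-fold (-0.91). It measured 1.28, 1.05 and 1.39 in IVV HB, 0.73, 0.12 and 0.14 in PA HB, and 0.45, 0.54 and 0.24 in CT HB. In this mean of 2 probes all cultured pools lay below those derived in vivo, but at neither probe alone. At the first, PA HB 1 (1.81) and CT HB 2 (1.32) exceeded IVV HB 1 (1.08), and at the other CT HB 1 (0.084) exceeded IVV HB 2 (0.047). In CT HB the *RAB13* difference of -0.83 had the smallest adjusted p of the RAB genes (0.097) and was not called. *RAB2A*, a Rab between ER and Golgi (0.78, adjusted p = 0.013), and *RAB21*, which acts in integrin uptake (0.89, adjusted p = 0.041), were higher in CT HB, relative to PA HB, but by less than 2-fold. The 8 Rabs of early and recycling endosomes had a median difference of 0.17 in PA HB and -0.08 in CT HB against IVV HB, and the 9 Rabs of secretion and polarized transport -0.09 and 0.03. Among the 6 RAB-named effectors and regulators none changed by limma in any comparison. In PA HB against IVV HB 1 had an unadjusted p under 0.05, beside 28.8% of all genes.

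Retromer retrieves receptors from endosomes to the Golgi, and its VPS26 subunit exists as paralogues A and B. *VPS26B* measured 0.45, 2.52 and 1.05 in IVV HB, 3.00, 3.67 and 3.48 in PA HB, and 0.29, 0.99 and -0.11 in CT HB. *VPS26A* measured 0.58, 0.12 and -0.11 in IVV HB, -1.07, -1.21 and -0.62 in PA HB, and 0.51, -0.79 and -0.39 in CT HB. The paralogues thus moved in opposite directions in PA HB, *VPS26B* above and *VPS26A* below all IVV HB arrays, while the second CT HB array of *VPS26A* lay within the PA HB values.

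*VPS26B* was higher by 2.04 (SE 0.45, adjusted p = 0.014) and *VPS26A* lower (-1.16, SE 0.31, adjusted p = 0.032) in PA HB, relative to IVV HB. In CT HB against PA HB *VPS26B* was lower (-2.99, adjusted p = 0.0048), and *VPS26A* did not pass (0.74, adjusted p = 0.14). The third measured subunit, *VPS29*, differed by -0.43 in PA HB (adjusted p = 0.13). After quantile normalization neither paralogue was called against IVV HB, at 0.83 and -1.02, nor after scale normalization, at 1.09 and -0.95, and array weights ended the call of *VPS26A* (-0.99). The *VPS26B* call was lost without IVV HB 1, IVV HB 3 or PA HB 2 (1.60 to 2.63 over all left-out arrays) and that of *VPS26A* without any IVV HB array, PA HB 1 or PA HB 2 (-1.33 to -0.97).

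*VPS37A*, a subunit of ESCRT-I, which sorts ubiquitinated receptors into multivesicular bodies, measured -1.64, -1.87 and -1.79 in IVV HB, -2.58, -2.78 and -3.16 in PA HB, and -1.88, -1.97 and -1.47 in CT HB. PA HB lay below both other groups, which overlapped. The difference was -1.08 against IVV HB (SE 0.20, adjusted p = 0.0071) and 1.07 in CT HB against PA HB (adjusted p = 0.0069), and both of its probes fell in PA HB, by 1.18 and 0.98 on the log2 scale. After scale normalization the differences were -0.08 and 0.18 and no longer called. The call against IVV HB was also lost without PA HB 3, and that against PA HB without PA HB 3 or CT HB 3, with differences of -1.21 to -0.92 and 0.91 to 1.20 over all left-out arrays.

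Other VPS genes changed in no comparison. The 5 HOPS and CORVET subunits, tethers of late and early endosomes, ranged from -0.53 (*VPS16*) to 0.09 (*VPS41*) in PA HB and from -0.12 to 0.45 in CT HB against IVV HB. For 2 of them these means hide probes of opposite sign in PA HB. The 3 probes of *VPS39* ranged from -0.76 to 1.15 and the 3 of *VPS41* from -0.75 to 0.81. In GARP, the tether that receives endosomal vesicles at the Golgi, *VPS54* was lower in PA HB with an adjusted p of 0.046 but less than 2-fold (-0.62). *VPS45*, a partner of endosomal syntaxins, measured 0.01, -0.22 and -0.05 in IVV HB, 0.01, -0.30 and 0.04 in PA HB, and 0.70, 0.55 and 0.66 in CT HB. Its 3 CT HB arrays stood above the 6 others, with a difference of 0.72 against both groups (adjusted p = 0.073 against IVV HB and 0.014 against PA HB).

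Sorting nexins bind endosomal lipids through a PX domain and bend or sort endosomal membrane. *SNX33*, which carries an SH3 domain and acts in endocytosis, measured 0.65, 0.19 and 1.02 in IVV HB, 2.25, 0.92 and 1.00 in PA HB, and 2.91, 2.52 and 2.13 in CT HB. All CT HB arrays lay above IVV HB, and the first PA HB array lay among them. The difference in CT HB against IVV HB was 1.90 (SE 0.35, adjusted p = 0.037), a 3.74-fold rise, and in PA HB it was 0.77 (adjusted p = 0.17). Its call was lost without any single IVV HB or CT HB array, with differences of 1.69 to 2.10 and adjusted p-values of up to 0.13.

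Its relative *SNX18*, which shares the SH3 domain and acts in membrane remodelling and autophagy, measured 1.68, 0.77 and 0.64 in IVV HB, 0.40, -1.29 and -0.25 in PA HB, and 0.76, 0.32 and 0.62 in CT HB. PA HB lay below IVV HB, by -1.41 (SE 0.38, adjusted p = 0.033), and its highest array reached into the CT HB range. Leaving out IVV HB 1 or 3, PA HB 2 or 3, or CT HB 3 ended the call, with differences of -1.80 to -0.95, as did quantile normalization (-1.69, adjusted p = 0.059) and a fit of the arrays of both groups alone (adjusted p = 0.071).

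*SNX25*, a sorting nexin with an RGS domain, had CT HB arrays outside the range of both other groups. It measured -1.08, -0.73 and -0.88 in IVV HB, -0.78, -0.34 and -0.43 in PA HB, and -1.67, -1.37 and -2.08 in CT HB. CT HB was lower than PA HB (log2 difference -1.19, SE 0.21, adjusted p = 0.0065), whereas the difference of -0.81 from IVV HB was not called (adjusted p = 0.13). Of its 2 probes 1 carried the difference between CT HB and PA HB, with -2.13 and -0.24. Of 5 nexins that work with retromer 3 lay below 0 in PA HB against IVV HB and 2 above. They ranged from -0.64 (*SNX6*, adjusted p = 0.076) to 0.94 (*SNX1*, adjusted p = 0.016, short of 2-fold). Another endosomal nexin, *SNX16*, was lower, also short of 2-fold (-0.77, adjusted p = 0.019).

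TRAPP complexes tether vesicles at the ER and Golgi and activate Rab1 and related Rabs. Of 6 measured subunits 2 were higher and 1 lower in PA HB against IVV HB, beside 4.34% and 3.38% of all genes. *TRAPPC5* measured -0.73, -0.72 and 0.08 in IVV HB, 1.48, 1.36 and 2.03 in PA HB, and 0.92, 1.76 and 1.08 in CT HB. It was the trafficking gene called in both kinds of cultured embryo against IVV HB, by 2.08 (SE 0.29, adjusted p = 0.0023) in PA HB and 1.71 (SE 0.29, adjusted p = 0.026) in CT HB, and PA HB and CT HB overlapped. The PA HB call was kept under every other setting and without each array in turn, whereas the CT HB call was lost without IVV HB 1, IVV HB 2, CT HB 2 or CT HB 3 (1.46 to 1.98).

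*TRAPPC3*, the subunit at the core of the complex, measured -1.24, -1.16 and -1.38 in IVV HB, -2.15, -3.54 and -2.61 in PA HB, and -1.42, -1.24 and -1.06 in CT HB. PA HB lay below both other groups, by -1.50 against IVV HB (SE 0.29, adjusted p = 0.0082) and with 1.52 for CT HB against PA HB (adjusted p = 0.0072). Neither call was lost without any 1 array, but after scale normalization the differences were -0.57 and 0.67 and no longer called. *TRAPPC6B*, which pairs with *TRAPPC3* in the complex, measured 0.20, 1.57 and 0.77 in IVV HB, 1.50, 2.38 and 2.39 in PA HB, and 0.12, 0.62 and 0.09 in CT HB.

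Here IVV HB 2 exceeded the lowest PA HB array, so that the 1.24 difference of *TRAPPC6B* (SE 0.34, adjusted p = 0.033) was called with overlapping groups, while CT HB lay below PA HB without overlap (-1.81, adjusted p = 0.0069). Its 3 probes differed between PA HB and IVV HB by 2.36, 1.73 and -0.36, and between CT HB and PA HB by -2.83, -2.60 and -0.01. The call against IVV HB was lost without array 1 or 3 of IVV HB or 2 or 3 of PA HB (0.92 to 1.60), after quantile or scale normalization (0.52 and 0.66), and with the arrays of both groups alone (adjusted p = 0.065). *TRAPPC2*, known as sedlin, was higher in CT HB than in PA HB short of 2-fold (0.76, adjusted p = 0.016).

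The SNAREs *STX17* and *VAMP5* rose in PA HB. *STX17*, the syntaxin that fuses autophagosomes with lysosomes, measured -0.39, 0.20 and 0.52 in IVV HB, 1.54, 1.46 and 2.07 in PA HB, and -0.28, 0.34 and -0.09 in CT HB. *VAMP5*, first described in muscle, measured -0.21, -0.63 and -0.38 in IVV HB, 1.04, 1.23 and 1.06 in PA HB, and 0.30, 0.36 and -0.33 in CT HB. For both genes every PA HB array stood above every other array, and CT HB overlapped IVV HB.

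*STX17* was higher in PA HB by 1.58 (SE 0.26, adjusted p = 0.0044) and *VAMP5* by 1.52 (SE 0.21, adjusted p = 0.0023) than in IVV HB. From PA HB to CT HB the log2 ratio dropped by 1.70 for *STX17* (adjusted p = 0.0048), and for *VAMP5* it dropped by 1.00 (adjusted p = 0.010). Both calls against IVV HB, and that of *STX17* between CT HB and PA HB, were kept under every other setting and without each array, while *VAMP5* lost the latter call without PA HB 2 or CT HB 3 (-1.13 to -0.78) and after quantile or scale normalization (-0.73 and -0.76). The other 7 syntaxins ranged from -0.52 (*STX10*) to 0.42 (*STX7*) in PA HB, and in CT HB the smallest adjusted p among syntaxins was 0.73 (*STX4*, 0.20).

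**Figure D2:**
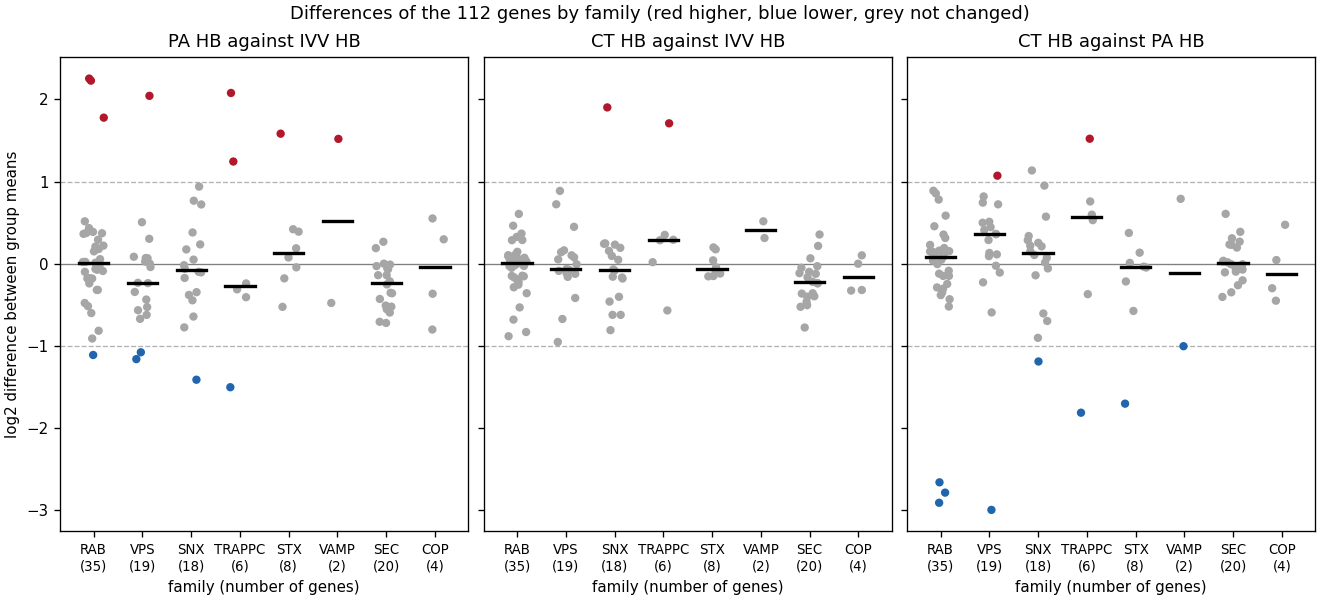
Log2 difference between group means (y axis) for each of the 112 genes by family (x axis, number of genes in brackets) in the 3 comparisons, with a bar at the family median and dashed lines at 2-fold. Changed genes are red (higher) or blue (lower). SEC and COP genes stayed within 2-fold in all 3 panels, and the SEC median was -0.23 against IVV HB in both PA HB and CT HB.

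The SEC and COP genes held no changed member. By limma 0 of 20 SEC genes, among them 3 SEC14-like proteins, and 0 of 4 COP genes passed both thresholds in any comparison. Of all genes 7.71% passed in PA HB against IVV HB, 0.654% in CT HB against IVV HB and 7.78% in CT HB against PA HB. With so few SEC and COP genes, a count of 0 says little about them. Without adjustment 5, 3 and 1 SEC genes had a p under 0.05 in PA HB against IVV HB, CT HB against IVV HB and CT HB against PA HB, and 1, 0 and 1 COP genes. Of all genes 28.8%, 11% and 28.3% had such a p in these comparisons. The SEC differences lay below 0 for 17 of 20 genes (85%) both in PA HB and in CT HB against IVV HB, with a median of -0.23 in each, beside 49.3% and 52.2% of all genes below 0. Between CT HB and PA HB 10 of 20 lay below 0. These comparisons share the IVV HB arrays, and the genes are not independent of each other.

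COPII builds the vesicles that leave the ER. Its 9 measured coat genes and partners all lay below 0 in PA HB, from -0.72 (*SEC23IP*, a partner of the inner coat) to -0.03 (*SEC13*), and 8 of 9 lay below 0 in CT HB, from -0.52 (*SEC23IP*) to 0.36 (*SEC31A*). In PA HB 3 of the 9 had an unadjusted p under 0.05, beside 28.8% of all genes, and in CT HB 0 did, beside 11%. The 3 in PA HB included the inner coat subunit *SEC23B* (-0.71, adjusted p = 0.088). *SEC22A*, a relative of the ER SNARE SEC22B, measured 0.06, 0.05 and 0.07 in IVV HB, -0.59, -0.53 and -0.49 in PA HB, and -0.51, -0.20 and -0.19 in CT HB. In this mean of 2 probes the IVV HB arrays lay above all 6 others, with a difference of -0.59 in PA HB (adjusted p = 0.029) that was short of 2-fold. At a single probe, however, CT HB 3 (0.405) lay above all IVV HB arrays (0.312, 0.303 and 0.024).

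At the translocon, *SEC62*, which serves entry of short secretory proteins, measured -1.68, -1.76 and -1.98 in IVV HB, -2.48, -2.45 and -1.78 in PA HB, and -2.71, -2.75 and -2.29 in CT HB. CT HB lay below IVV HB without overlap (-0.78, adjusted p = 0.17), and PA HB overlapped IVV HB. The pore subunit *SEC61A1* averaged 0.00 in PA HB over 2 probes that went opposite ways, at 0.74 and -0.73, neither of which passed (adjusted p = 0.090 and 0.062). In the COPI coat, which returns cargo from the Golgi to the ER, *COPB1* had a difference of -0.80 in PA HB (adjusted p = 0.017) and *COPA* one of 0.55 (adjusted p = 0.19).

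**Figure D3:**
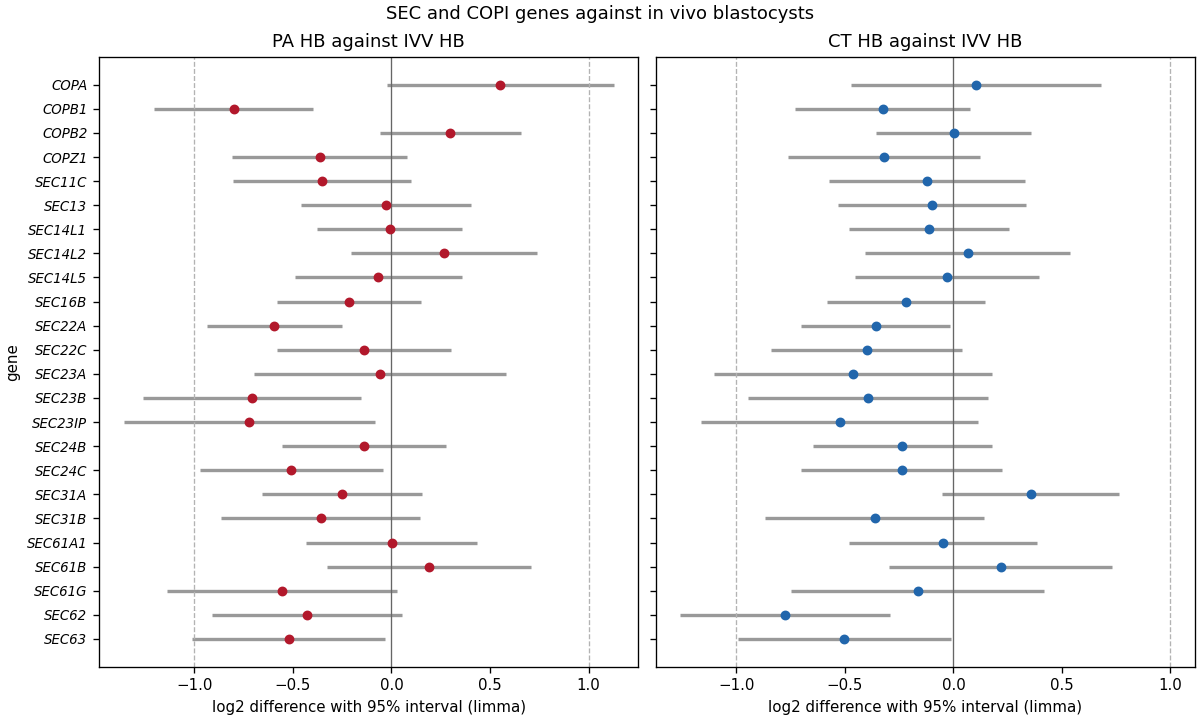
Log2 difference from IVV HB (x axis, point) with the 95% interval of the limma fit (bar) for the 4 COP and 20 SEC genes (y axis) in PA HB and CT HB, with dashed lines at 2-fold. Most points lie left of 0 in both panels, and no point lies beyond 2-fold.

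Many probes of various genes rose and fell together over the 9 arrays, and some trafficking genes were among them. The profile was represented by the mean of *ASAP3*, *IL12A*, *LIPE* and *KAT5*, taken without a stated rule and with earlier results of these data known. It measured 0.30, 2.40 and 1.03 in IVV HB, 2.72, 4.03 and 3.73 in PA HB, and 0.44, 1.18 and 0.12 in CT HB. A probe was said to follow it at a correlation of at least 0.95 over the 9 arrays, which was met by 644 of 23971 probes (2.69%) and by 7 of 169 member probes (4.14%). These belonged to *RAB6B* (r = 0.999), *RAB34* (0.998), *TRAPPC6B* (0.996 and 0.992 for 2 of 3 probes), *VPS26B* (0.989), *RAB39B* (0.984) and *SNX7* (0.951), a description over 9 arrays that share reference and scanner.

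Of the 8 members that were higher in PA HB against IVV HB 5 had such a probe, beside 41.5% of all genes higher there, and of the 8 members lower in CT HB against PA HB 5 had one, beside 50% of all such genes. A probe that follows the profile is high in PA HB by construction, so these directions were largely fixed. Without those probes 8 members changed in PA HB against IVV HB, 3 higher (*STX17*, *TRAPPC5* and *VAMP5*) and 5 lower, and 5 changed in CT HB against PA HB, 2 higher and 3 lower. Only 108 members were left to test, since *RAB6B*, *RAB34*, *RAB39B* and *VPS26B* had no other probe. The loss of their calls was therefore fixed in advance. The remaining probe of *TRAPPC6B* then gave -0.36 in PA HB against IVV HB and -0.01 in CT HB against PA HB, so that neither of its calls was kept. The oocyte list, which was higher in PA HB, also holds genes with such a probe, among them *GDF9*, *ZP3* and *OOEP*, and what the profile has to do with trafficking genes was not tested.

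**Figure D4:**
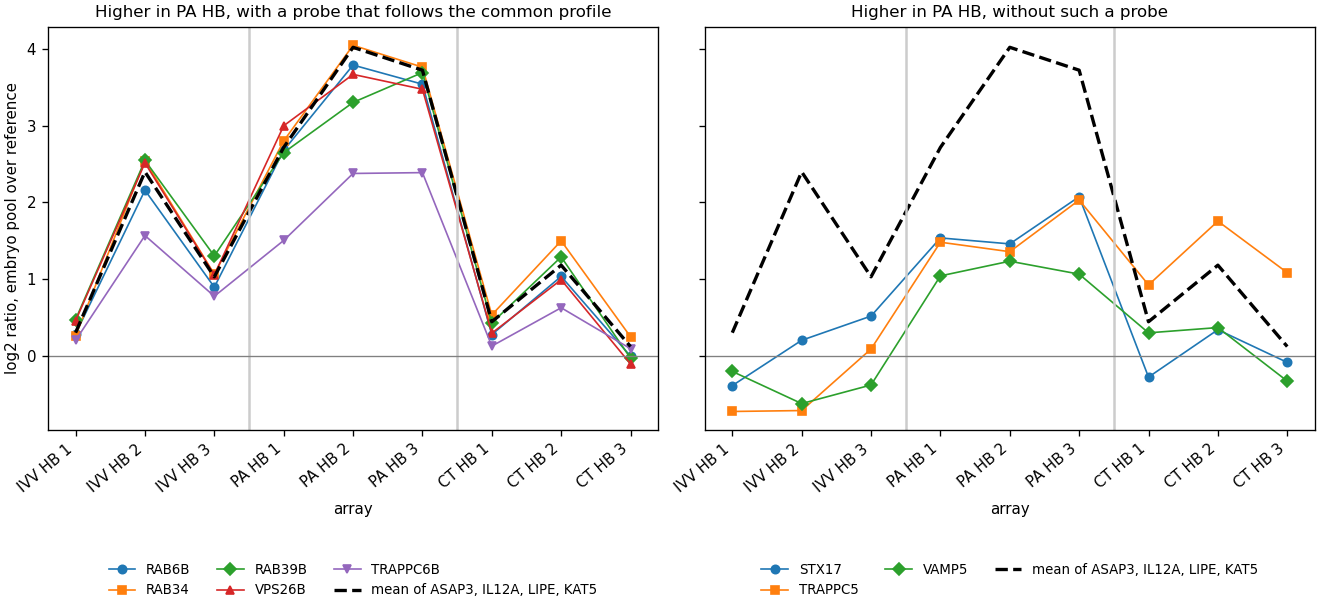
Log2 ratio over reference (y axis) on the 9 arrays (x axis) for the 8 trafficking genes higher in PA HB against IVV HB, with lines that only join the values of a gene and the mean of 4 genes of the common profile dashed. The 5 genes on the left rise on IVV HB 2 as the profile does, to between 1.57 and 2.55, whereas *STX17*, *TRAPPC5* and *VAMP5* on the right lie between -0.72 and 0.20 on that array.

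Where several probes read a member, they often differed. In PA HB against IVV HB 18 of 36 such genes had probes of the same sign, and in 13 the probes spanned more than 1 log2 unit, although in none did they oppose each other beyond 2-fold. Single probes therefore passed in genes whose mean did not: *RAB10*, which carries cargo to the basolateral surface, fell by 1.32 at 1 of 6 probes and 1.13 at another, *RAB11A* of recycling endosomes by 1.12 at 1 of 2, and *COPB1* by 1.18 and 1.01 at 2 of 4. *RAB27A*, which docks secretory granules, rose by 1.13 at 1 of 3, and *VPS39* of the HOPS tether by 1.15 at 1 of 3. The other probes of *VPS39* gave -0.76 and -0.51. Between CT HB and PA HB *VPS41*, its HOPS partner, was higher by 1.67 at 1 of 3 probes (adjusted p = 0.0042), with -0.56 and -0.02 at the others. Which transcript or region each probe reads was not examined.

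Other genes of the same machinery were taken from lists of coat and ARF genes, clathrin adaptors, SNAREs, tethers, Rab regulators, ESCRT, cargo receptors and ER translocation, which hold no member and include relatives with letters after RAB, STX or COP. In PA HB against IVV HB the lists of 14 coat and ARF genes, 17 SNAREs and fusion factors and 21 Rab regulators held 1 higher gene each and no lower one: *ARCN1*, delta-COP (1.13), the Golgi SNARE *GOSR1* (1.96) and the RAB1 GTPase activator *TBC1D20* (1.90). Of all genes 4.34% were higher and 3.38% lower in this comparison. Of 17 cargo receptors 2 were higher, *TMED9* (2.16) and *ERGIC1* (1.82). Of these 5 genes all had a probe that followed the common profile, as did *SPCS3*, a signal peptidase subunit (2.02).

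Among 20 other tethers *GOLGA4*, a golgin that captures vesicles at the trans-Golgi, was lower in PA HB (-1.97, adjusted p = 0.011), and it was higher in CT HB than in PA HB (2.33, adjusted p = 0.0062). Among 9 ESCRT genes without a VPS name none was higher in PA HB, beside 4.34% of all genes. *CHMP2B* and *CHMP4A*, both of ESCRT-III, were lower (-1.14 and -1.18), beside 3.38% of all genes. Over the list 6 of 9 genes lay below 0 with a median difference of -0.17, whereas the array medians of its log2 ratios were -0.31 to -0.06 in IVV HB, -1.27 to -0.97 in PA HB and -0.62 to -0.20 in CT HB. Of 19 genes of ER targeting and translocation 3 were higher, of which *DAD1*, a subunit of the enzyme that attaches sugar chains in the ER, had the smallest adjusted p (1.09, adjusted p = 0.0046), and *OSTC* of the same enzyme was lower (-1.40, adjusted p = 0.0057). None of 23 clathrin and adaptor genes changed in PA HB by limma, with 4 at an unadjusted p under 0.05, beside 28.8% of all genes.

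In CT HB against IVV HB a single gene over these lists changed, beside 0.654% of all genes. It was *KDELR1*, the receptor that returns ER residents from the Golgi (1.06, adjusted p = 0.041). In CT HB against PA HB *KDELR1* (1.14), *SAR1A*, the GTPase that starts COPII assembly (1.14), *TBC1D15*, a RAB7 GTPase activator (1.24), and from the clathrin list the heavy chain *CLTC* (1.07) and *AP2B1* of the plasma membrane adaptor (1.02) were higher, as were *GOLGA4*, *CHMP2B* (1.23), *CHMP4A* (1.13) and *OSTC* (1.11). *ARCN1* (-1.33), *GOSR1* (-2.71), *TBC1D20* (-2.48), *TMED9* (-2.80), *ERGIC1* (-2.52), *SPCS3* (-2.64) and *DAD1* (-1.02) were lower. Of all genes 2.95% were higher and 4.83% lower in CT HB against PA HB. *SAR1A* measured 0.31, 0.41 and 0.50 in IVV HB, -0.40, -0.92 and -0.41 in PA HB, and 0.80, 0.31 and 0.57 in CT HB. PA HB stood below both other groups, and its difference from IVV HB of -0.98 had an adjusted p of 0.0097 but was short of 2-fold.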

How the data were processed

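Transcripts were measured on 9 two-colour arrays, 3 per group. The deposited values are log2 ratios of 23971 probes. The authors scanned both channels, subtracted background and applied global loess within arrays; scaling between arrays was not described. The log base and direction are not written beside the values; direction was read from the dyes and checked on 16 oocyte transcripts, of which 14 lay below the reference on all arrays. Dim probes were not set aside, since spot intensities were not used here, and the number of arrays limits the precision. Nothing states that pools came from separate collections, so p-values measure the spread between pools.

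One gene symbol was given to 10344 probes (43.2%) and none to 13627. By synonym or accession in the Sscrofa11.1 RefSeq table, used for names only, 201 probes were renamed, none of a member. Probes were averaged to 7495 genes and group means fitted to all 9 arrays with limma 3.58.1 in R 4.3.3 (two-sided, Benjamini-Hochberg over all genes). The fit was tested on simulated data. The other settings were the arrays of both groups alone, a replicate block, 3 normalizations, probe summaries, the least variable 25% of genes left out, a robust prior, array weights, other thresholds, common-profile probes left out, and each array left out.

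Named genes were all changed members, the smallest adjusted p per family and comparison, family extremes against the reference, and up to 2 changed genes per other list and comparison. Values by array were due for 12 members and were given for all 15 changed ones and for some further named genes. Single probes and genes beyond this rule were named after their values were seen. Members and lists were chosen with earlier results of these data known.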

Additional observations from a re-analysis of the deposited data

How the results depend on the processing

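The number of trafficking genes changed in PA HB against IVV HB, 13 as reported (578 of all genes), was 6 once the adjusted p had to reach 0.01 (266), 7 after quantile normalization (316), 6 after scale normalization (518), 8 without common-profile probes (446) and 21 with each probe on its own (911), and 6 to 14 without 1 array. In CT HB against IVV HB, 2 as reported (49), it was 0 to 2 without 1 array and 0 once the adjusted p had to reach 0.01 (19). In CT HB against PA HB, 10 as reported (583), it was 16 by adjusted p alone (1081), 5 without common-profile probes (402), 18 with each probe on its own (854) and 8 to 14 without 1 array. The split of the latter between higher and lower was 2 and 8 as reported, and 4 and 5 after quantile normalization, beside 225 and 146 of all genes. Without common-profile probes only 108 members were tested. *RAB6B*, *RAB34*, *RAB39B* and *VPS26B* had no probe left, so the loss of their calls was fixed in advance. *TRAPPC6B* in PA HB against IVV HB turned to -0.36 without its common-profile probes, which leaves 1 of 3 probes. For the other changes the cause was not tested.

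With the replicate number as a block the counts were 13, 2 and 11, and all 25 called differences were kept. Arrays of the same number deviated together unevenly (r of -0.15 to 0.32), so the numbers were not taken to pair the samples. Of the 13, 2 and 10 calls, 5, 0 and 8 were kept without each array in turn, and 3, 0 and 4 under every setting and left-out array run. Of the last 4, *RAB6B* and *VPS26B* had no probe left once common-profile probes were left out. That setting was therefore not run for them. Centring, the median of probes, the least variable genes left out and a robust prior kept all 25. With 3 arrays per group and no spot intensities, a difference that missed the thresholds is not shown to be absent.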
